A study of Mus musculus with 2 samples.

Results

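The 10 glycolysis enzyme genes described here are Hk1, Hk2, Gpi1, Pfkl, Aldoa, Tpi1, Pgk1, Eno1, Ldha and Pkm, taken by gene symbol from the 32285 genes of the feature list. They occupy 11 rows, because Aldoa is listed under a main identifier and under a second one (ENSMUSG00000114515) that held 104 UMIs (unique molecular identifiers, each tagging 1 captured RNA molecule) in PADI4 WT cells and 98 in PADI4 cKO cells. The second row enters the sum of the 10 genes and no value given for Aldoa itself. The genes were measured by single-cell RNA sequencing of tdTomato+ epithelial cells, isolated by FACS from the back skin of mice at postnatal day 1 (P1) after the epidermis had been enzymatically removed from the dermis, so that growing hair follicles (HFs) were enriched. In both libraries Cre was driven by the keratin 14 promoter (K14-Cre), which is active in the skin epithelium, and it switched on the tdTomato reporter, so the control cells carry Cre and reporter too. The PADI4 cKO cells carried loxP-flanked Padi4 alleles in addition (Padi4 fl/fl). Each genotype is 1 library, both were treated here as 1 batch, and the number of animals behind a library is not given in the sources used here.

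Glycolysis splits glucose into pyruvate in the cytosol and yields ATP without oxygen. Hexokinases trap glucose as glucose 6-phosphate, phosphofructokinase commits it to the pathway, aldolase splits the sugar into triose phosphates, and the lower enzymes recover ATP and end in pyruvate, which lactate dehydrogenase can turn into lactate. HFs are known for strong glycolysis and lactate output, and the outer root sheath (ORS) stores glycogen.

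The libraries held 143938990 UMIs (PADI4 WT) and 143945294 UMIs (PADI4 cKO). After quality filters 8065 and 7398 epithelial cells remained, with medians over all retained cells of 14659 and 16190 UMIs per cell. They fell into 23 clusters made without the glycolysis and hypoxia genes, of which 11 classes could be named from marker genes: germinative layer (GL), medulla (Med), inner root sheath (IRS), cortex (Cx), lower proximal cup (LPC), ORS, upper HF (uHF), sebaceous gland (SG), interfollicular epidermis (IFE), companion layer and contractile epithelial cells. All are called "-like", since the names were rebuilt from markers. Padi4, the targeted gene, did not set the libraries apart: it had 99 UMIs in PADI4 WT and 92 in the cells labelled PADI4 cKO, and a 3′ count outside the deleted part cannot check the deletion. Cells in which Xist but no Y-linked gene had a UMI (Xist-only) made up 26.1% of PADI4 WT and 98.3% of PADI4 cKO cells, and 62.3% of PADI4 WT cells held Y-linked UMIs alone (Y-only), against 0% of PADI4 cKO cells. Genotype, sex and animal therefore cannot be told apart between the libraries. The libraries shared 17 barcodes with at least 2000 UMIs, 0.194% of those in PADI4 WT and 0.216% of those in PADI4 cKO.

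The 10 genes lie on chromosomes 4, 6, 7, 9, 10 and X of GRCm38, the build of the deposited counts (mm10). Hk1 lies at chr10:62268855-62379908, Hk2 at chr6:82725025-82774454 and Gpi1 at chr7:34201330-34230336. Pfkl lies at chr10:77986947-78010083, Aldoa at chr7:126795234-126800751 and Tpi1 at chr6:124810586-124814296. Pgk1 lies at chrX:106187100-106203699, Eno1 at chr4:150236721-150248879, Ldha at chr7:46841475-46855627 and Pkm at chr9:59656368-59679375. Pgk1, Eno1, Ldha and Pkm are on the plus strand and the others on the minus strand.

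Promoters of 3 members are printed because these genes differ in their levels over the classes: Hk2 was highest in the cortex-like cells, Aldoa varied most widely among the abundant members, and Ldha, like the sum of all 10, was lowest in Cx-like cells. Each is the 250 bases before a RefSeq transcript start (GRCm38.p6), 5′ to 3′ on the gene's strand, at chr6:82774455-82774704 for Hk2, chr7:126799179-126799428 for Aldoa and chr7:46845554-46845803 for Ldha. Capitals mark ACGTG, a form of the core of the element that hypoxia-inducible factors recognise, on either strand, and CACGTG, the E-box palindrome that contains it.

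Hk2: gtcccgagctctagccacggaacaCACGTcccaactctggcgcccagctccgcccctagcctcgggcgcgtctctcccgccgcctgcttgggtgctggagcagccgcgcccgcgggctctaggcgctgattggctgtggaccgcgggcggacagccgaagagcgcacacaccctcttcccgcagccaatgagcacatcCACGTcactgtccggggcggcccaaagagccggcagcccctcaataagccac

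Aldoa: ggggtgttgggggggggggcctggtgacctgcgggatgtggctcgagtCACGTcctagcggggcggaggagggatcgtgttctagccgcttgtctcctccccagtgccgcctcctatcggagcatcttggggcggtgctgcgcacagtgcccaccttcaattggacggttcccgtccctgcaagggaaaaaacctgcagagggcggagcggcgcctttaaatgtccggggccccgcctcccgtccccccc

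Ldha: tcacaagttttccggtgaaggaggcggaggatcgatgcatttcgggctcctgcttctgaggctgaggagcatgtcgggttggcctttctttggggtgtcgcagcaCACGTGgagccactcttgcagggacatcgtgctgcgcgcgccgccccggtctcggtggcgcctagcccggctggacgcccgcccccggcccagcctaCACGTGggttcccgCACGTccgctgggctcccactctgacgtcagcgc

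Where a gene has several starts, the one with the most matches is shown, so the choice favours a match. Over all 17 promoter entries of the 10 members, 6 held ACGTG (of Hk2, Aldoa, Pgk1, Ldha and Pkm), against 16.6% of all 32851 promoters of the same length. The Ldha promoter holds it at 3 places, of which 2 are CACGTG, a palindrome found in 6.02% of all promoters and read once on each strand. GCGTG, the other form of the core, lies in 6 of the 17 entries (Hk1, Pfkl and Eno1 among them) and in 28.2% of all promoters. A match describes letters in the window only, and 3′ counts do not show which start site a transcript came from.

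Summed over the 10 genes, transcripts were least abundant in the hair-forming and inner root sheath lineages and more abundant in the ORS, the LPC and the other epithelial classes (see the plot of summed levels by class). Levels are given as CPM, the UMIs of a gene or sum of genes per 1000000 UMIs of the class, with exact 95% Poisson intervals that cover counting error only. In PADI4 WT the sum was 624 CPM in Cx-like cells (601 to 648), 718 in Med-like, 738 in IRS-like and 789 in GL-like cells. It was 1124 CPM in LPC-like, 1252 in ORS-like and 1299 in uHF-like cells, so that the highest class stood 2.08-fold above the lowest. In PADI4 cKO the same 4 lineages were lowest, with 651 CPM in Cx-like (626 to 677), 668 in Med-like, 719 in IRS-like and 761 in GL-like cells, against 1119 in LPC-like, 1149 in uHF-like and 1232 in ORS-like cells. The highest class there was the contractile epithelial-like class with 1366 CPM, which held 1265 CPM in PADI4 WT. The uHF-like class, the highest in PADI4 WT, was thus not among the highest in PADI4 cKO (log2 difference −0.18, −0.23 to −0.13). Companion-like cells held 978 and 1027 CPM, SG-like cells 965 and 1068, and IFE-like cells 1129 and 1347.

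Several neighbours in this order were not apart beyond counting error. In PADI4 WT these were Med-like and IRS-like, SG-like and companion-like, LPC-like and IFE-like, and ORS-like, contractile epithelial-like and uHF-like cells in turn. In PADI4 cKO they were Cx-like and Med-like, companion-like and SG-like, LPC-like and uHF-like, and IFE-like and contractile epithelial-like cells. Pearson's r between the libraries over the 11 classes was 0.95, given as a description.

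**Figure D1:**
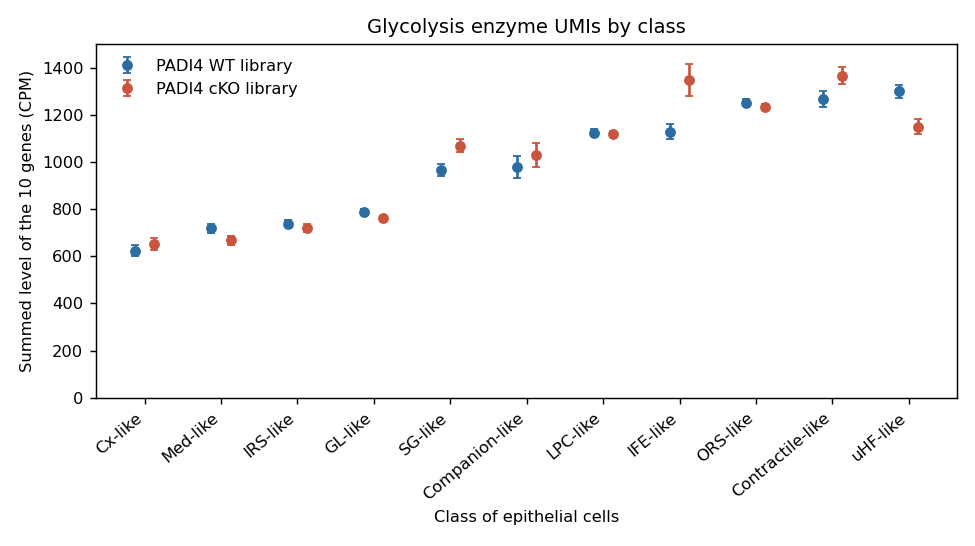
Summed level of the 10 genes (CPM, y axis) in 11 marker-named classes (x axis) of the PADI4 WT and PADI4 cKO libraries, with exact 95% Poisson intervals as bars. Cx-like, Med-like, IRS-like and GL-like cells sit between 624 and 789 CPM in both libraries, and LPC-like and ORS-like cells between 1119 and 1252 CPM.

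The order was also seen cell by cell. The median Cx-like cell held 5.95 UMIs of the 10 genes per 10000 UMIs in PADI4 WT and 5.89 in PADI4 cKO, which came from 8 and 10 UMIs of these genes in the cell. The median ORS-like cell held 11.9 and 11.8 per 10000, and the median LPC-like cell 11.2 in both libraries. ORS-like cells were sampled less deeply than Cx-like cells, with 11922 against 14231 UMIs per cell in PADI4 WT. Transcripts of the 10 genes took part in the free RNA at 1045 and 1006 CPM in droplets under 100 UMIs, a level between those of the 2 ends of the order, and free RNA was at most 7.84% and 6.73% of a cell's UMIs.

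Of the 10 genes, 9 were lower in all 4 of the GL-like, Med-like, IRS-like and Cx-like classes than in ORS-like cells in both libraries, with Hk2 as the exception. Over all 14910 genes with at least 100 UMIs this was so for 30.4%, and the opposite (higher in all 4) for 19.1%. None of the 10 was higher in all 4.

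**Figure D2:**
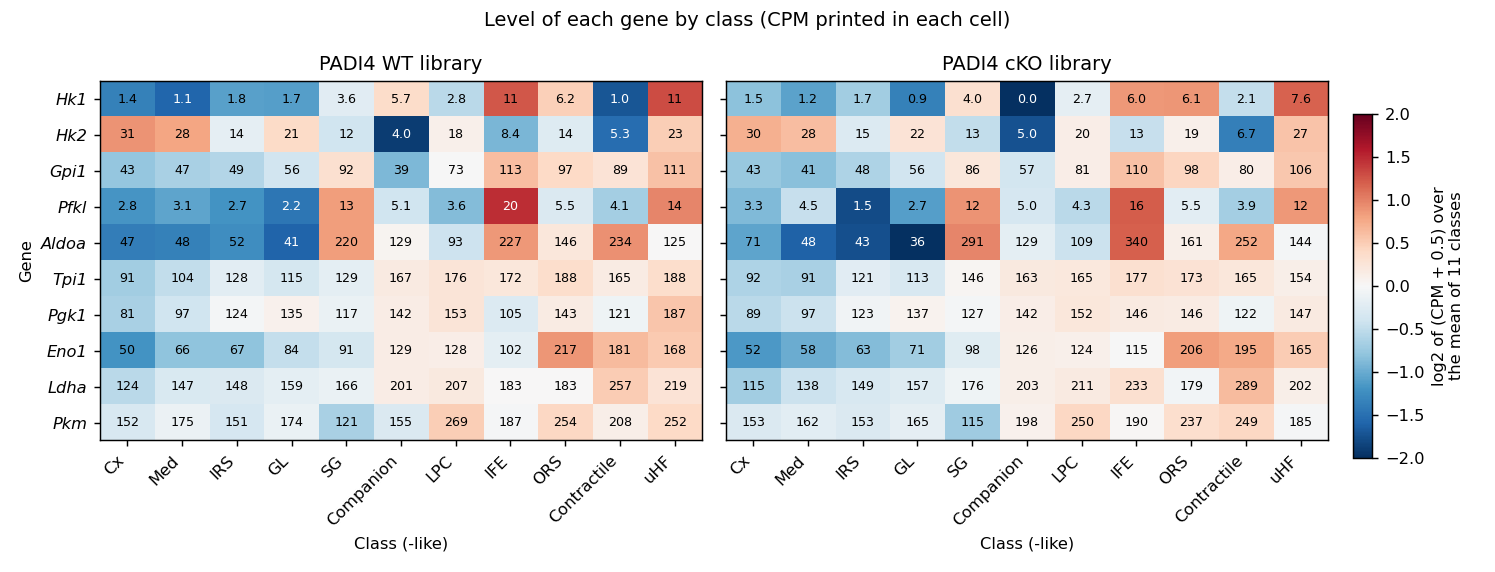
Level of each of the 10 genes (rows) in each class (columns, ordered by the PADI4 WT sum) of the PADI4 WT library (left) and the PADI4 cKO library (right). Colour is log2 of the CPM plus 0.5 over the mean of the 11 classes and the printed number is the CPM; most rows run from blue at the left to red at the right, whereas Hk2 is red at Cx-like, with 30.8 and 29.8 CPM, and blue at companion-like, with 3.99 and 5.00 CPM.

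The 2 hexokinase genes had different highest classes. Hexokinase 2, the inducible form, reached 30.8 CPM in Cx-like and 28.5 CPM in Med-like cells of PADI4 WT, and 29.8 and 27.9 CPM in PADI4 cKO. It was lowest in companion-like cells, with 3.99 and 5.00 CPM, and in contractile epithelial-like cells, with 5.32 and 6.68 CPM. Outside the named classes, cluster 13, which stayed unnamed because its uHF and ORS markers were up alike, held 36.2 and 41.9 CPM. Inside the named classes Hk2 was not uniform. ORS-like cluster 4 held 27.1 and 30.0 CPM and GL-like cluster 8 held 27.7 and 27.3 CPM, near the Cx-like level. ORS-like cluster 11 held 10.0 and 16.8 CPM, and ORS-like cluster 14 held 6.38 and 10.5 CPM. Hk1, the housekeeping form, held only 523 and 404 UMIs in all, with 11.4 and 7.60 CPM in uHF-like cells and 1.38 and 1.52 CPM in Cx-like cells. In uHF-like cells Hk2 was also high, at 23.0 and 26.7 CPM, and over 19 clusters Pearson's r between both genes was −0.20 in PADI4 WT and 0.18 in PADI4 cKO. The 0 UMIs of Hk1 in the 101 companion-like cells of PADI4 cKO allow up to 1.88 CPM, taking 3 UMIs as the floor for a count of 0. The share of Hk2 among hexokinase UMIs of the pair was 95.7% in Cx-like cells of PADI4 WT (90.9 to 98.4, exact binomial interval) and 95.2% in PADI4 cKO, against 68.5% (64.4 to 72.4) and 75.9% in ORS-like cells and 43.7% (33.1 to 54.7) and 68.2% (45.1 to 86.1) in IFE-like cells.

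Among the sugar phosphate enzymes, Gpi1 (glucose 6-phosphate isomerase) and Pfkl (the liver type of phosphofructokinase) were highest in IFE-like cells. Gpi1 held 113 and 110 CPM there (the latter from 128 UMIs), close to 111 and 106 CPM in uHF-like cells, against 43.0 and 43.2 CPM in Cx-like cells. Pfkl held 19.9 and 15.5 CPM in IFE-like cells, 14.0 and 12.2 CPM in uHF-like cells and 2.76 and 3.29 CPM in Cx-like cells, which rest on 12 and 13 UMIs. Of the phosphofructokinase UMIs, most came from Pfkp, the platelet type, which is not among the 10: its share was 59.5% and 59.4% over all epithelial cells, 82.5% and 81.5% in contractile epithelial-like cells, and 39.4% (22.9 to 57.9) and 22.5% (10.8 to 38.5) in Cx-like cells.

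Aldoa, the main aldolase, varied 5.76-fold over the classes in PADI4 WT and 9.38-fold in PADI4 cKO, the widest range among the 7 most abundant members. It held 40.6 and 36.3 CPM in GL-like cells, 51.8 and 43.4 CPM in IRS-like cells and 48.5 and 47.9 CPM in Med-like cells. In SG-like cells it held 220 and 291 CPM, in IFE-like cells 227 and 340 CPM, and in contractile epithelial-like cells 234 and 252 CPM. LPC-like cells, with 93.0 and 109 CPM, lay between these groups and above all 3 of GL-like, IRS-like and Med-like cells. Aldoc, a second aldolase, made up 16.9% and 16.4% of the UMIs of the pair in Cx-like cells, against 7.65% and 8.32% in ORS-like cells. The share was 13.4% and 13.4% in Med-like, 11.2% and 17.7% in IRS-like and 6.31% and 8.10% in GL-like cells. The level of Aldoc itself was lower in each of these classes and in Cx-like cells than in ORS-like cells, so a higher share is no higher level.

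The lower enzymes varied less, apart from enolase. Eno1, which makes phosphoenolpyruvate, held 50.4 and 52.1 CPM in Cx-like cells and 217 and 206 CPM in ORS-like cells, its highest class in both libraries. Tpi1, which interconverts the triose phosphates, ran from 90.6 CPM (Cx-like) to 188 CPM (ORS-like) in PADI4 WT and from 90.7 CPM (Med-like) to 177 CPM (IFE-like) in PADI4 cKO. Pgk1, the first ATP-yielding step, held 81.2 and 89.5 CPM in Cx-like cells, 153 and 152 CPM in LPC-like cells and 187 and 147 CPM in uHF-like cells. Ldha, which converts pyruvate to lactate, held 124 and 115 CPM in Cx-like cells and 257 and 289 CPM in contractile epithelial-like cells, while LPC-like cells (207 and 211 CPM) lay above ORS-like cells (183 and 179 CPM). Pkm, pyruvate kinase, was highest in LPC-like cells, with 269 and 250 CPM, and lowest in SG-like cells, with 121 and 115 CPM. Ldhb, the lactate dehydrogenase subunit outside the 10, made up 62.8% of the Ldha and Ldhb UMIs in SG-like cells of both libraries and 7.55% and 11.46% in Cx-like cells.

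Each class was set against the other epithelial cells of its library, with 0.5 on the log2 scale in both libraries as the threshold. With 1 library a genotype this is a threshold of size and no test. It was applied to the 10924 genes with at least 1000 UMIs, which include 9 of the 10 (all but Hk1). In Cx-like cells 7 of the 9 were lower past the threshold (Gpi1, Pfkl, Aldoa, Tpi1, Pgk1, Eno1 and Ldha) against 22.6% of all genes, and 1 (Hk2) was higher against 8.28%. Pfkl was just past it in PADI4 cKO, at −0.57, with a counting interval that crosses 0 (−1.54 to 0.16). In Med-like cells 4 were lower (Gpi1, Aldoa, Tpi1 and Eno1) against 15.1% of all genes, and 4 were lower in both the GL-like and the IRS-like class (Gpi1, Pfkl, Aldoa and Eno1) against 19.6% and 20.2%. No member was higher in GL-like or IRS-like cells, where 4.62% and 6.72% of all genes were. In ORS-like cells Aldoa and Eno1 were higher against 13.5% of all genes, and none was lower against 9.15%. In LPC-like cells 0 were past the threshold either way, against 3.4% of all genes higher and 8.14% lower. No member passed as higher in Med-like cells, where 6.75% of all genes did. The median log2 difference of the 9 members was −0.76 and −0.65 in Cx-like cells, where that of all genes was −0.10 and −0.09, and 0.37 and 0.32 in ORS-like cells, where that of all genes was −0.01 and −0.01.

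Within the LPC-like class the level was not uniform. Its clusters 0 and 1 held 1253 and 1171 CPM of the 10 genes in PADI4 WT and 1219 and 1213 CPM in PADI4 cKO. Cluster 17 held 879 CPM (856 to 903) and 865 CPM (846 to 886), nearer to the 3 GL-like clusters, which ran from 742 to 820 CPM in PADI4 WT and from 713 to 797 CPM in PADI4 cKO. Beside 4 of the 6 LPC markers, cluster 17 also had 5 GL markers up (Shh, Cux1, Bmp4, Myb and Eda). Cluster 1 had 3 LPC and 4 GL markers up, so these clusters may not be of 1 cell type. The same limit holds for other classes: SG-like cluster 6 and IFE-like cluster 15 each had 6 uHF markers up beside their own. The 4 ORS-like clusters ran from 1159 to 1308 CPM and from 1092 to 1292 CPM. The highest of them in both libraries, cluster 11, had only 3 of the 7 ORS markers up, with 0 among its top 10 genes.

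In the hair-forming lineages the sum was also read against the amount of keratin, by splitting the cells of a class into 3 groups of like size by the share of their UMIs from the keratin and trichohyalin genes among the markers of that class, over both libraries together. These groups are ranges and no cell types, and CPM was taken without keratin UMIs. In Cx-like cells of PADI4 WT the sum was 714 CPM (671 to 760) with the least keratin, 608 (570 to 648) in the middle and 561 (521 to 602) with the most, where the last 2 intervals overlap. In PADI4 cKO it was 686 (645 to 729), 634 (590 to 680) and 637 CPM (593 to 684), and all 3 intervals overlap. Pkm in Cx-like cells held 187, 161 and 107 CPM over these groups in PADI4 WT and 164, 163 and 132 CPM in PADI4 cKO. Pgk1 went from 98.9 to 57.7 CPM and from 108 to 69.4 CPM between the least and the most keratin. Aldoa ran the other way in Cx-like cells, from 40.1 to 63.6 CPM and from 53.8 to 89.2 CPM. In IRS-like cells the sum was 803, 764 and 666 CPM from the least to the most keratin in PADI4 WT, and 743, 746 and 676 CPM in PADI4 cKO. In Med-like cells, split by their markers Mt4 and Krtap8-1, it was highest in the middle group, with 695, 793 and 674 CPM in PADI4 WT and 674, 698 and 635 CPM in PADI4 cKO, so a lower sum with more of the marker was not seen in every lineage and library.

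Proliferation differs widely between these classes, so the 10 genes were compared within each class between cells with and without a UMI of Mki67 or Top2a, proliferation markers, called after thinning every cell to 2000 UMIs. Cells with such a UMI made up 74.2% and 72.2% of GL-like cells, 60.7% and 50.8% of LPC-like cells, 34.4% and 24.0% of ORS-like cells and 30.9% and 32.0% of Cx-like cells. Aldoa was lower in the cells with such a UMI in all 19 comparisons (classes and libraries with at least 50 cells on each side), by 0.38 to 1.08 on the log2 scale, and every counting interval lay below 0. Of all 10924 genes, 2.13% were lower in every comparison and 6.67% were higher in every one. No other member was lower, and none was higher, in all 19. In LPC-like cells Aldoa held 78.0 against 122 CPM in PADI4 WT and 88.8 against 137 CPM in PADI4 cKO. Pgk1 was higher in 14 of the 19 comparisons and Tpi1 in 14, by medians of 0.15 and 0.10, and Pkm in 12, by 0.09. Most other members were more often lower. Gpi1 was lower in 15 and Eno1 in 15, by medians of 0.18 and 0.19, Hk2 in 13, by 0.17, and Ldha in 11, by 0.04. Pfkl and Hk1, which have few UMIs, were lower in 17 and 14, by medians of 0.70 and 0.36. The sum of the 10 was lower in 15, by a median of 0.06.

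**Figure D3:**
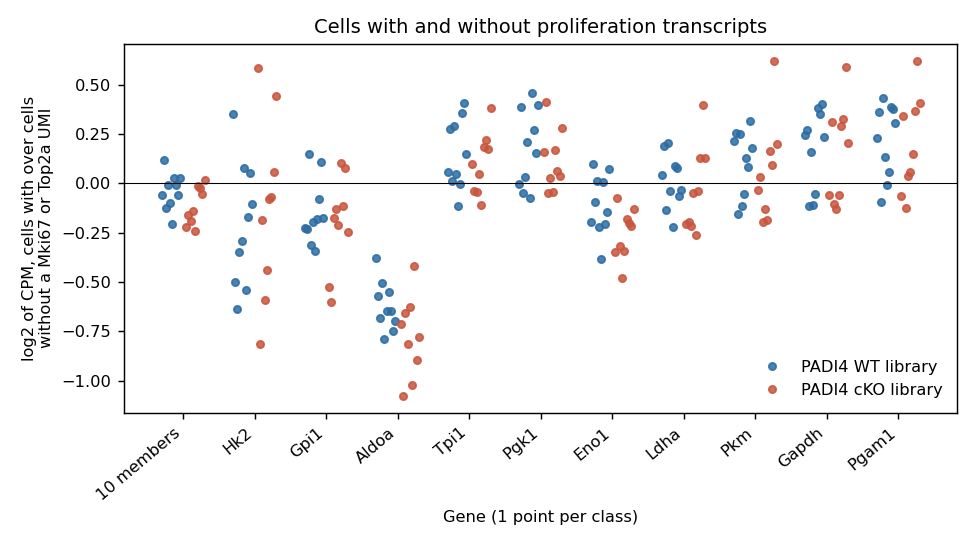
Log2 ratio of the level in cells with a UMI of Mki67 or Top2a over the level in cells without one (y axis), for the sum of the 10 genes, 8 of them (without Hk1 and Pfkl, which have few UMIs), Gapdh and Pgam1 (x axis), with 1 point per class and library. The Aldoa points lie between −1.08 and −0.38 in every class shown, and the points of the sum between −0.24 and 0.12.

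A cell without a UMI of Mki67 or Top2a after thinning may still have been cycling, so the order in cells that do not cycle was not tested. Among cells without such a UMI the order of these 4 classes was the same. There the sum was 604 and 678 CPM in Cx-like, 844 and 842 CPM in GL-like, 1232 and 1228 CPM in LPC-like and 1256 and 1238 CPM in ORS-like cells. Aldoa held 57.5 and 50.6 CPM in GL-like and 174 and 175 CPM in ORS-like cells without such a UMI. Cells with a UMI of either marker were the more deeply sampled ones, with 18026 against 14742 UMIs per cell in GL-like cells of PADI4 WT, and cell cycle scores had been regressed out before clustering.

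The comparison of PADI4 cKO with PADI4 WT asked whether these genes differed between the genotypes, and few values did by more than 0.5 on the log2 scale. Over all epithelial cells the sum was 1011 CPM in PADI4 WT and 997 CPM in PADI4 cKO, a log2 difference of −0.02 (−0.03 to −0.01, conditional binomial interval, counting error only). None of the 11 rows passed 0.5, against 5.16% of all genes compared, and single genes ran from −0.39 for Hk1 (4.09 to 3.11 CPM) to 0.20 for Hk2 (18.1 to 20.7 CPM). Over the 6 classes GL-like, Med-like, IRS-like, Cx-like, LPC-like and ORS-like, 53 pairs of gene and class held at least 100 UMIs, and 2 of them passed 0.5. Aldoa in Cx-like cells was the first, with 206 UMIs (47.4 CPM) in PADI4 WT and 280 UMIs (70.8 CPM) in PADI4 cKO, a log2 difference of 0.58 (0.31 to 0.84), where 4.57% of all genes passed. Hk2 in ORS-like cells was the second, with 363 UMIs (13.5 CPM) and 501 UMIs (19.2 CPM), a log2 difference of 0.51 (0.31 to 0.71), where 4.69% of all genes passed. No member passed in GL-like (2.79% of all genes), Med-like (4.02%), IRS-like (3.1%) or LPC-like cells (3.95%). With 1 library per genotype these differences have no replicate check.

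**Figure D4:**
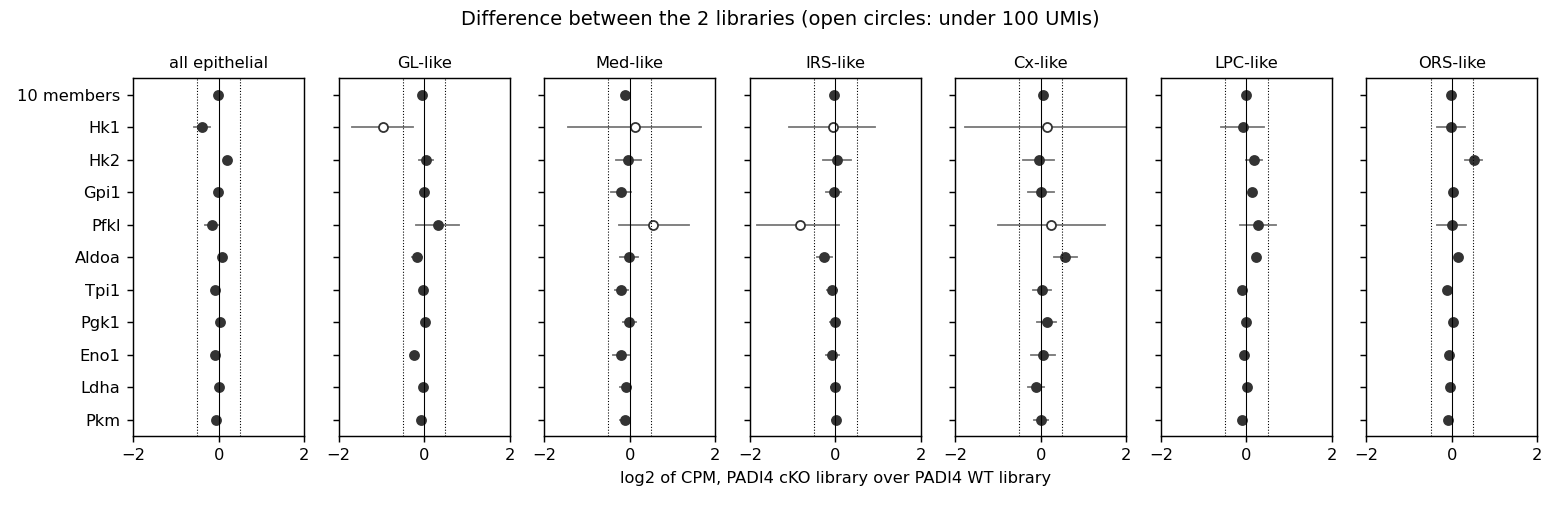
Log2 of the PADI4 cKO level over the PADI4 WT level (x axis) for the sum and each of the 10 genes (y axis) in all epithelial cells and in 6 classes, with 95% conditional binomial intervals as bars and open circles for pairs under 100 UMIs. Filled points lie within 0.5 of 0 except Aldoa in Cx-like cells at 0.58 and Hk2 in ORS-like cells at 0.51.

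The Aldoa difference in Cx-like cells ran from 0.20 to 0.74 over 9 other ways of computing it. In 4 of these it fell below the threshold: 0.30 without called doublets, 0.20 after thinning to 2000 UMIs, 0.42 as a mean over cells and 0.49 with a lower limit of 4000 UMIs. Called doublets made up 5.40% of Cx-like cells in PADI4 WT and 10.96% in PADI4 cKO. Of the other classes, uHF-like cells had Hk1 past 0.5, at −0.57 (−1.22 to 0.03), where 9.67% of all genes passed. Below the threshold there were Pkm at −0.45 (−0.57 to −0.32) and Pgk1 at −0.35 (−0.49 to −0.21). IFE-like cells had Aldoa past it, at 0.58 (0.41 to 0.75), where 16.4% of all genes passed, and Pgk1 at 0.48 (0.22 to 0.73). Companion-like cells had Gpi1 past it, at 0.53 (0.07 to 1.01), against 7.42% of all genes. None passed in SG-like cells (4.94% of all genes), where Aldoa stood at 0.40 (0.30 to 0.51), or in contractile epithelial-like cells (3.61%).

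The Hk2 difference in ORS-like cells moved with the Xist and Y-linked UMIs of the cells. ORS-like cells of the PADI4 WT library with Y-linked UMIs alone held 10.5 CPM of Hk2 (167 UMIs, 1188 cells), and those with Xist UMIs alone held 19.5 CPM (149 UMIs, 587 cells), a log2 difference of 0.90 (0.57 to 1.23) inside 1 library. Xist-only ORS-like cells of PADI4 cKO held 19.3 CPM, which differed from the Xist-only cells of PADI4 WT by −0.02 (−0.28 to 0.26). Between the 2 kinds of PADI4 WT cells 4.88% of 10826 genes passed 0.5 in ORS-like cells. The ORS-like clusters of PADI4 WT ran from 6.38 CPM (cluster 14) to 27.1 CPM (cluster 4) of Hk2. How these clusters were mixed in each kind of cell was not compared. Over all epithelial cells Hk2 held 16.4 CPM in Y-only and 21.5 CPM in Xist-only cells of PADI4 WT, a difference of 0.39 (0.25 to 0.52), which is under the 0.5 that 5.67% of 13394 genes passed, and 20.7 CPM in Xist-only cells of PADI4 cKO. The 2 kinds of cells come from different animals, so sex and animal cannot be told apart. Aldoa in IFE-like cells lay the same way, with 218 CPM in Y-only and 321 CPM in Xist-only cells of PADI4 WT (34 cells) and 338 CPM in Xist-only cells of PADI4 cKO. Pgk1, which is X-linked, differed by 0.05 between Xist-only and Y-only cells of PADI4 WT.

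**Figure D5:**
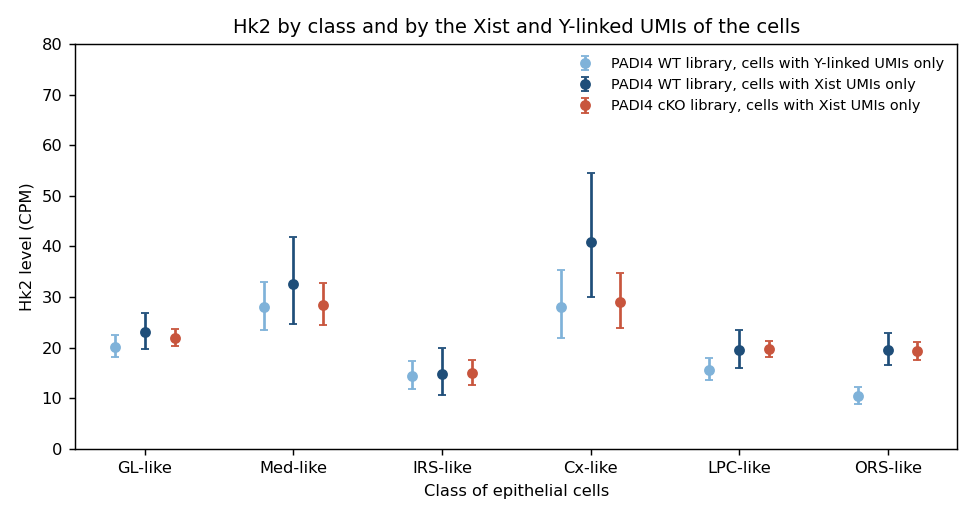
Hk2 level (CPM, y axis) by class (x axis) in Y-only and Xist-only PADI4 WT cells and in Xist-only PADI4 cKO cells, with exact 95% Poisson intervals. In ORS-like cells the Xist-only cells of both libraries sit at 19.5 and 19.3 CPM and the Y-only cells at 10.5 CPM.

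Other genes of the pathway were read from 6 lists, each set beside the 30.4% of all genes that were lower and the 19.1% that were higher in all 4 classes. Of the 10 other glycolysis isozymes and steps with at least 100 UMIs (of 19), 7 were lower in all 4 of the GL-like, Med-like, IRS-like and Cx-like classes than in ORS-like cells in both libraries, and 1 (Bpgm, which makes 2,3-bisphosphoglycerate) was higher. Gapdh, the step before Pgk1, was among the lower ones, with 577 and 575 CPM in Cx-like and 1018 and 964 CPM in ORS-like cells. Pgam1, the step after Pgk1, was not: it held 258 and 244 CPM in Med-like, 248 and 245 CPM in GL-like and 165 and 161 CPM in ORS-like cells. Eno2 was low, at 1.27 and 1.23 CPM in ORS-like cells.

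Of the 7 transport genes, 4 were lower in the 4 classes and 0 higher (30.4% and 19.1% of all genes). Slc2a1, a main glucose transporter of epithelia, was lower, with 5.29 and 7.83 CPM in Cx-like, 19.2 and 24.8 CPM in ORS-like and 76.4 and 65.5 CPM in IFE-like cells. Slc16a7, a monocarboxylate transporter, ran from 63.0 and 61.2 CPM in Cx-like to 352 and 341 CPM in ORS-like and 779 and 637 CPM in contractile epithelial-like cells. Slc16a1, the lactate transporter MCT1, was highest in SG-like cells, with 67.3 and 80.9 CPM, and Slc16a3 was low throughout, at 2.92 and 7.03 CPM in SG-like cells.

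Of the 9 pyruvate entry genes 4 were higher in the 4 classes (Mpc2, Pdha1, Pdhb and Dlat) and 1 lower (Pdk2, a kinase that inhibits pyruvate dehydrogenase), beside 19.1% and 30.4% of all genes. Pdhb, a subunit of pyruvate dehydrogenase, held 112 and 122 CPM in Cx-like and 52.2 and 47.5 CPM in ORS-like cells. Mpc2, a subunit of the mitochondrial pyruvate carrier, peaked at 319 and 329 CPM in SG-like cells, and Pdk4 was highest there too among the named classes of PADI4 WT, at 3.60 CPM. Of the 7 pentose phosphate genes 3 were higher and 0 lower, beside the same 19.1% and 30.4%. G6pdx, the first enzyme of that branch, held 71.8 and 64.7 CPM in Cx-like, 36.3 and 37.1 CPM in IRS-like and 7.82 and 8.33 CPM in ORS-like cells. Rpia held 16.6 and 15.7 CPM in Cx-like and 37.6 and 34.5 CPM in GL-like cells, and Taldo1 173 and 155 CPM in Cx-like and 143 and 131 CPM in ORS-like cells. Transcripts of 83 nuclear respiratory chain genes summed to 19274 and 18558 CPM in Cx-like and 19569 and 18385 CPM in ORS-like cells, so that the ratio of the 10 genes to this sum was 0.0324 and 0.0351 in Cx-like and 0.0640 and 0.0670 in ORS-like cells.

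Of the 6 regulators of the fructose bisphosphate step, 1 was lower (Pfkfb4) and 2 were higher (Pfkfb1 and Tigar), beside 30.4% and 19.1% of all genes. With 6 genes, counts like these cannot be set closely against such shares. Fbp1, the gluconeogenic fructose bisphosphatase, stood apart: it held 54.2 and 57.1 CPM in IRS-like cells and 0.60 and 0.46 CPM in ORS-like cells, and 640 of its 726 UMIs in PADI4 WT and 568 of its 622 in PADI4 cKO came from IRS-like cells. Only 20.3% and 24.2% of the IRS-like cells had a UMI of Fbp1. Pfkfb3 stayed at 3.01 CPM or below in the named classes of both libraries. Of 12 hypoxia response genes 4 were lower in the 4 classes (Hif1a, Vegfa, Bnip3 and P4ha1), near the 30.4% of all genes, and 0 higher. Hif1a held 16.8 and 20.7 CPM in Cx-like and 97.7 and 93.3 CPM in ORS-like cells. P4ha1, a collagen prolyl hydroxylase subunit, held 5.29 and 7.08 CPM in Cx-like and 39.9 and 38.3 CPM in ORS-like cells, Epas1 was highest in contractile epithelial-like cells at 15.95 and 16.4 CPM, and Ndrg1 in companion-like cells at 61.5 and 57.6 CPM.

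Over 19 clusters with at least 50 cells in each library, log2 levels of the members were compared as a description, since clusters of a library share its depth and cells. Tpi1 was the most like the sum of the other 9, with a Pearson's r of 0.92 and 0.91, followed in PADI4 WT by Eno1 (0.83 and 0.82) and Gpi1 (0.82 and 0.90). Hk2 alone ran against the others, with −0.42 and −0.36. Of 8930 genes outside the lists, the 5 whose pattern was most like the sum of the 10 were Smap1 (0.93 and 0.95), Capns1 (0.93 and 0.93), Ccn1 (0.92 and 0.93), Pgrmc1 (0.92 and 0.93) and Bri3 (0.91 and 0.91).

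Reads of some members can be shared with near-identical copies. Of the 31-base words in the last 500 bases of its transcripts, Eno1 shares 71.6% with other annotated genes, Gpi1 41.3%, Aldoa 36.4%, Pkm 34.4%, Ldha 24.0%, Tpi1 22.1% and Pgk1 11.1%, whereas Hk1 and Pfkl share 0 and Hk2 0.43%. Levels of these members are uncertain to the extent that such reads were set aside or split in counting, and the shares of Aldoc and Ldhb among the UMIs of a gene pair carry the same uncertainty (Ldhb shares 44.4% of its words). The level of 1 gene was compared between classes and libraries. UMIs of different genes were set against each other only as such shares and as the ratio to the respiratory chain genes, which were read between classes. Fewer transcripts of a gene per cell and more of all others cannot be told apart on the CPM scale.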

How the data were processed

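Single cells were profiled with Chromium 3′ v3.1 chemistry. The counts of UMIs per gene and barcode that the authors deposited were used as they stand: raw matrices made with Cell Ranger 7.1.0 per the file headers and mapped to mm10 per the labels. Whether intronic reads were counted is not given in the sources used here. Droplet background removal with CellBender and correction of cell cycle phase with Harmony, which the study describes, were not run.

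Cells were kept that had between 2000 and 60000 UMIs and between 1000 and 8000 genes, no more than 20% mitochondrial and 1% haemoglobin UMIs, and ribosomal shares between percentiles 5 and 99. Counts were normalised to 10000 per cell and log-transformed. Clusters came from 1000 variable genes without the listed pathway, cell cycle and sex genes, with cell cycle scores regressed out, 50 components, 15 neighbours and Leiden resolution 1 (Scanpy 1.11.5). A cluster was named when at least 3 markers stood 1.5-fold above the other cells at 5 CPM or more, by the list with the largest share of its markers. Where 2 lists came within 0.15 of each other, the name needed a lead of 2 markers among the top 10 genes. This naming rule, and the Scrublet doublet threshold of 0.2008 used in both libraries (256 and 298 cells called), were chosen with the clusters in view, and doublets stay in the main values. 56 and 30 fibroblast-like and 27 and 10 melanocyte-like cells were left out.

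Levels are summed UMIs per 1000000 (CPM) with exact Poisson intervals, shares have exact binomial intervals (Clopper-Pearson), and the log2 ratio between libraries has an exact conditional binomial interval, all at 95%, for counting error only. There is no test, as each genotype has 1 library and cells are not replicates. Log2 ratios over many genes used 0.5 added UMIs. A gene entered a comparison between libraries with at least 100 UMIs and one between classes with at least 1000. Interval code was tested on simulated data. Identifiers matched GENCODE M21 for 32235 of 32285 genes, and promoters come from RefSeq on GRCm38.p6, with entries for all 10 genes.

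The 10 members, named by symbol, the pathway lists and the tests were chosen with earlier results of these data known. All members are named, with up to 3 genes of each list that had 100 UMIs and the widest range over clusters, isozymes of members, and the 5 genes most like the sum. Gapdh, Pgam1, Bpgm, Slc2a1, Pdhb and Hif1a were named in addition, after their values were seen.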

Additional observations from a re-analysis of the deposited data

How the results depend on the processing

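The difference of the summed level between Cx-like and ORS-like cells kept its sign in all 13 alternatives of both libraries. Its main log2 value was −1.004 in PADI4 WT and −0.92 in PADI4 cKO. In PADI4 WT it moved to −0.85 with cells gated on their own markers, −1.16 in Xist-only cells, −0.90 with CPM taken without mitochondrial, ribosomal protein and keratin genes, and −1.11 after subtraction of the empty-droplet profile. In PADI4 cKO it moved to −0.80 with the marker gate, −1.06 without called doublets, −0.85 with the reduced CPM and −0.996 after the subtraction. For single members the sign of this difference was kept too, except that Pfkl in PADI4 WT turned to 0.21 after thinning to 2000 UMIs per cell. The number of members lower in all 4 classes than in ORS-like cells, 9 in the main analysis, ran from 7 to 9. At resolution 0.5, which gave no Med-like cells, it was counted over the remaining classes, an easier condition. The share of all genes was not computed for the alternatives.

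The difference of the sum between the libraries, −0.02, became −0.10 in Xist-only cells, 0.0144 after thinning, 0.00912 as a mean over cells and −0.00631 when centred on the median of all genes. The number of pairs of gene and class past 0.5, 2 of 53, became 1 without called doublets, 0 with a lower limit of 4000 UMIs, 1 as a mean over cells, 4 of 56 with a minimum of 50 UMIs and 1 of 42 with 500. Hk2 in ORS-like cells turned from 0.51 to −0.021 in Xist-only cells. The cause of these moves was not tested.

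Some classes were not found in an alternative: Med-like, uHF-like, companion-like and contractile epithelial-like at resolution 0.5, uHF-like at resolution 2, and IFE-like without cell cycle correction and with a lower limit of 4000 UMIs. With 1 library a genotype, no replicate was left out. No paired analysis was possible because each genotype has 1 library. Hk1 and Pfkl, found in few cells, are limited by depth.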
